A study of Mus musculus with 4 samples.

Results

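The SR proteins and the heterogeneous nuclear ribonucleoproteins (hnRNPs) were followed in mouse bone marrow stem and progenitor cells with 1 or 2 working copies of the splicing factor gene Sf3b1. Members were all genes named Srsf followed by a number, or with a name that starts with Hnrnp; Srsf2 was left out by this rule. The mouse annotation held 32 such genes, 10 SR protein genes and 22 hnRNP genes, and 29 of them had at least 1 of 52 probes on the array. Values were compared for 28 members, 8 SR protein genes and 20 hnRNP genes, of 13033 genes compared in all. Srsf11, Hnrnpa1l2-ps and Hnrnpa1l2-ps2 had no matched probe. The single probe of Srsf12 was not well above background on any of the 4 arrays and had no value to compare.

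The cells were LSK cells, the marrow fraction that lacks lineage markers and carries c-Kit and Sca-1, sorted from C57BL/6 mice. The 4 groups had 1 single-colour array each: Sf3b1+/- transplanted, wild-type transplanted, Sf3b1+/- native and wild-type native. Transplanted cells were CD45.2+ donor cells recovered 9 months after total marrow of either genotype was given to lethally irradiated CD45.1+ hosts, whose own CD45.1+ cells were left out by the sort. Native cells came from mice aged 20 weeks. The labels mention 4 mice for the native and 5 recipients for the transplanted collection, without saying how many gave RNA to an array. The Sf3b1+/- animals carried 1 null allele, embryos with no working copy are not viable, and setting cannot be told apart from age, irradiation of the host or position on the slide.

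SR proteins bind exonic enhancers in pre-mRNA through RNA recognition motifs and recruit the spliceosome through a domain rich in arginine and serine. hnRNPs coat nascent transcripts and often act in the opposite direction, at silencers in exons and introns, besides roles in mRNA export, stability and translation. Sf3b1 is a core subunit of the U2 particle, which SR proteins help to place at the branch site. Many SR protein and hnRNP genes limit their own mRNA through exons that trigger decay of the transcript, and an array probe need not tell such forms apart.

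The promoter windows of 5 members are shown, those that differed 1.5-fold with setting in at least 1 genotype, without Hnrnph3, whose probe is dim and whose window held no motif searched. They are 300 bases each across and mostly upstream of the transcript start, from RefSeq (GRCm38.p6), 5′ to 3′ on the strand of the gene. Srsf7 and Srsf6 had higher signal in transplanted cells, and Hnrnpa0, Hnrnpa1 and Hnrnpu had lower signal there. Capitals mark the motifs searched on both strands: the ETS core CCGGAAG, the cyclic AMP element TGACGTCA, the E-box CACGTG and the CCAAT box, which reads ATTGG where it lies on the reverse strand.
Srsf7, chr17:80207256-80207555 (- strand): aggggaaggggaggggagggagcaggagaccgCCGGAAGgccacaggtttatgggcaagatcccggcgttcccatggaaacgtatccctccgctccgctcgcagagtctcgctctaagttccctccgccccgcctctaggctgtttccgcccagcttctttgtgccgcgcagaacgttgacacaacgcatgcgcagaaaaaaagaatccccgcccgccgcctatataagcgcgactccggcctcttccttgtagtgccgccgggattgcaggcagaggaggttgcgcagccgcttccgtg
Srsf6, chr2:162931258-162931557 (+ strand): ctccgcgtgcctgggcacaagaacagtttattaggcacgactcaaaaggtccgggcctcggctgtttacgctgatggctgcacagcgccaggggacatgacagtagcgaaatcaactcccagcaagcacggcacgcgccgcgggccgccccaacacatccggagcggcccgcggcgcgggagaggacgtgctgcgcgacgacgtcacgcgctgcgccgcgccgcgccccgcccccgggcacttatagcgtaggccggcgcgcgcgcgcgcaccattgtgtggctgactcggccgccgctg
Hnrnpa0, chr13:58128507-58128806 (- strand): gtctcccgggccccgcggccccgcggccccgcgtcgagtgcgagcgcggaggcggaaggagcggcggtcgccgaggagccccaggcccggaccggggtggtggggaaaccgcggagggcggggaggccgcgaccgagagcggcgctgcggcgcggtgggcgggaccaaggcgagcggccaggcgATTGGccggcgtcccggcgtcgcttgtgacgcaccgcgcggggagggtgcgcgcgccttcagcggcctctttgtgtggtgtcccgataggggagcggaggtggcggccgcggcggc
Hnrnpa1, chr15:103240147-103240446 (+ strand): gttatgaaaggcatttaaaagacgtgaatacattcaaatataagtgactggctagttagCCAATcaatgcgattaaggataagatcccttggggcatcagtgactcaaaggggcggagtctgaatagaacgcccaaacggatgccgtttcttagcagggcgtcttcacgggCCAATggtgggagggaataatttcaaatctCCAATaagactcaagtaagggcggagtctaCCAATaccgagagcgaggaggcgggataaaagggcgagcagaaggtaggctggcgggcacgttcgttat
Hnrnpu, chr1:178337766-178338065 (- strand): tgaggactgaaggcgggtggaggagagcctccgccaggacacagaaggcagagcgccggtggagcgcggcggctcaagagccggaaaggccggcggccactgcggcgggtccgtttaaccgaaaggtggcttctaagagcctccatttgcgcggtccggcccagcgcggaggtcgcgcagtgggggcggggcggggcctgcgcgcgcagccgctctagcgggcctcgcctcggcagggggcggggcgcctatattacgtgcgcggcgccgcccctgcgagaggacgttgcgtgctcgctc
The Srsf7 window held 1 ETS core, the Hnrnpa0 window 1 reversed CCAAT box and the Hnrnpa1 window 4 forward CCAAT boxes, and the Srsf6 and Hnrnpu windows held none of the motifs. Of 37 windows that matched 26 compared members, 20 held a CCAAT box (54.1%), where 37.4% of all 32851 windows of this length did. The ETS core was in 8 member windows (21.6%, against 8.86% of all windows) and the E-box in 5 (13.5%, against 7.15%). No member window held the cyclic AMP element, which occurred in 1.79% of all windows. Windows of 1 gene overlap in part, so these shares are a description, and a match is a string of letters and not a measured binding site.

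Signal is given as log2 processed intensity minus the 75th percentile of each array, so 0 is a fairly bright probe, and no probe is set against another. Replicate spots of a probe differed within an array by an SD of 0.0989 to 0.122, which gives a difference between 2 arrays a technical SD of up to 0.172. Relative to the spike-in RNAs, the median of all compared genes lay 0.58 (transplanted) and 0.22 (native) higher in Sf3b1+/- cells than in the wild type, and 0.79 and 0.43 higher in transplanted than in native cells (Sf3b1+/- and wild type). All differences below are relative to that shared shift. All 10 LSK markers, Kit and Ly6a among them, were well above background on every array. The probe of Sf3b1 read -2.98 in Sf3b1+/- and -2.87 in wild-type transplanted cells, and -2.60 in Sf3b1+/- and -2.19 in wild-type native cells, differences of -0.11 and -0.41, of which the transplanted one is within the spot noise and not resolved.

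The comparison of genotypes asks whether loss of 1 Sf3b1 copy goes with other levels of the splicing regulators. No SR protein or hnRNP gene differed 1.5-fold between Sf3b1+/- and wild-type cells, in native cells (0 of 28, where 7.95% of all compared genes did) or in transplanted cells (0 of 28, where 14.2% did). The median difference of the 8 SR protein genes was -0.07 in native and -0.01 in transplanted cells, and that of the 20 hnRNP genes was 0.02 and 0.03, against all-gene medians of -0.00188 and 0.00547. In an additive limma model of genotype and setting over the 4 arrays, no member passed at a Benjamini-Hochberg adjusted p of 0.05, and none of all 13033 genes did. At an unadjusted p of 0.05 the same model had 1 of 28 members (3.57%), against 13.6% of all compared genes. With 4 arrays this model leaves 1 residual degree of freedom, the contrast of the genotype difference between the settings. Its p-values rest on that contrast and on a variance shared across genes, and not on scatter between replicate arrays. They cannot tell a technical difference from a biological one. In bulk RNA, fewer cells of a type and less RNA per cell cannot be told apart.

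The member past the unadjusted threshold was Hnrnpdl, a relative of the AU-rich element binding protein hnRNP D. Its signal was 3.02 in Sf3b1+/- and 3.45 in wild-type transplanted cells, and 3.01 in Sf3b1+/- and 3.43 in wild-type native cells. Both Sf3b1+/- arrays lay below both wild-type arrays, and the setting moved the value by 0.02 or less. The differences were -0.44 in transplanted and -0.42 in native cells, with a limma effect of -0.43 (SE 0.12, unadjusted p = 0.0239, Benjamini-Hochberg adjusted p = 0.356). A log2 difference of 0.32, smaller than the 0.58 of a 1.5-fold change, was counted too. Hnrnpdl was the only member lower by at least that in both settings (1 of 28, where 5.39% of all compared genes were), and none was higher by as much in both (0 of 28, where 4.41% were). Scaled to the spike-ins, its difference was 0.14 in transplanted and -0.20 in native cells. Its other probe read -0.25 and 0.04 in Sf3b1+/- and wild-type transplanted cells, and 0.08 and 0.41 in Sf3b1+/- and wild-type native cells, differences of -0.29 and -0.34.

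Among SR protein genes, Srsf1, a well-studied splicing activator, had 0.42 in Sf3b1+/- and 0.30 in wild-type transplanted cells, and 0.74 and 0.45 in Sf3b1+/- and wild-type native cells. Its native difference of 0.30 was the widest of the 8. Srsf5 read 2.08 and 2.16 in Sf3b1+/- and wild-type transplanted cells, and 1.97 and 2.22 in Sf3b1+/- and wild-type native cells. Srsf10, known to act as a repressor when dephosphorylated, read -0.88 and -0.69 in Sf3b1+/- and wild-type transplanted cells, and -0.91 and -0.84 in Sf3b1+/- and wild-type native cells. For both of these the Sf3b1+/- arrays lay below the wild-type arrays by the probe that stands for each gene. The differences were -0.08 and -0.25 for Srsf5 and -0.19 and -0.07 for Srsf10 (transplanted and native). The transplanted Srsf5 and the native Srsf10 difference were within the spot noise. The other, dimmer Srsf10 probes differed by 0.11 and 0.78 in native cells, so the native direction of Srsf10 depends on the probe. Srsf3 differed by -0.16 and -0.20, Srsf7 by -0.09 and -0.06 and Srsf4 by 0.07 and 0.18 (transplanted and native). Srsf6 differed by 0.07 and -0.13, both within the spot noise, and Srsf9 by 0.22 and -0.01. The lowest limma Benjamini-Hochberg adjusted p for genotype among the 8 was 0.468.

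The widest transplanted differences among the hnRNP genes were those of Hnrnph3, Hnrnpa1, Hnrnpdl, Hnrnpab, Hnrnpa2b1 and Hnrnpul2. Hnrnpa1, an abundant shuttling splicing repressor, read 2.10 in Sf3b1+/- and 2.57 in wild-type transplanted cells, and 2.83 in Sf3b1+/- and 3.08 in wild-type native cells. The differences of -0.47 and -0.25 gave a limma effect of -0.36 (unadjusted p = 0.0539, Benjamini-Hochberg adjusted p = 0.366), and its other probe differed by -0.08 and -0.13. Hnrnpa2b1, which also sorts RNA into vesicles and reads methylated adenosine, went the other way: 2.02 and 1.63 in Sf3b1+/- and wild-type transplanted cells, and 1.64 and 1.42 in Sf3b1+/- and wild-type native cells. Both Sf3b1+/- arrays were above both wild-type arrays by a narrow margin, with differences of 0.39 and 0.22. Hnrnpab had 3.27 and 2.88 in Sf3b1+/- and wild-type transplanted cells, against 3.08 and 3.10 in Sf3b1+/- and wild-type native cells. By this probe the difference was 0.39 in transplanted and -0.02 in native cells. The other Hnrnpab probe, of similar brightness, differed by 0.0022 and -0.05, so the transplanted difference depends on the probe.

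The hnRNP U genes, whose products bind nuclear RNA and chromatin scaffold, were higher in Sf3b1+/- cells in both settings for all 3 members by the probe that stands for each gene, with medians of 0.17 in transplanted and 0.27 in native cells. Of the 3, only Hnrnpul2 differed beyond the spot noise in both settings, and the share of all compared genes higher in both is not given. Hnrnpul2 read -1.50 in Sf3b1+/- and -1.84 in wild-type transplanted cells, and -1.01 in Sf3b1+/- and -1.29 in wild-type native cells. Hnrnpul1 read -1.39 and -1.49 in Sf3b1+/- and wild-type transplanted cells, and -0.98 and -1.26 in Sf3b1+/- and wild-type native cells. Its other, dimmer probe ran the opposite way, with differences of -0.49 in transplanted and -0.41 in native cells, so the genotype direction of Hnrnpul1 depends on the probe. Hnrnpu differed by 0.17 and 0.12, and Hnrnpul2 had a limma Benjamini-Hochberg adjusted p of 0.373 for genotype.

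In the hnRNP F/H group, whose members bind runs of G, Hnrnpf read 3.43 in Sf3b1+/- and 3.75 in wild-type transplanted cells, and 3.97 and 4.14 in Sf3b1+/- and wild-type native cells. Hnrnph1 differed by -0.24 and -0.06 and Hnrnph2 by 0.23 and 0.05 (transplanted and native). Hnrnph3 was the only member at least 0.32 apart in opposite directions in the settings (1 of 28, where 2.9% of all compared genes were): -5.78 in Sf3b1+/- and -5.26 in wild-type transplanted cells, and -5.58 in Sf3b1+/- and -5.97 in wild-type native cells. Its single probe was dim, with a processed signal of 48.9, 47.5, 40.7 and 26.4 units on those 4 arrays. With another background correction (normexp) its native difference was -0.04. Of the others, Hnrnpc, which binds runs of U, differed by -0.17 and -0.23 and Hnrnpll by 0.02 and 0.23. By the probe that stands for each gene, Hnrnpa0, Hnrnpa3, Hnrnpd, Hnrnpk, Hnrnpl, Hnrnpm and Hnrnpr differed by no more than 0.14 in either setting. The 7 probes of Hnrnpa3 ranged from -0.15 to 0.39 in transplanted and from -0.00149 to 0.37 in native cells. A second Hnrnpk probe differed by 0.35 and 0.02. Among the 28 members, 12 were higher and 12 lower in both settings. Many of these differences lay within the spot noise. The share of all compared genes with the same sign in both settings is not given, so these counts do not set the members apart. Both Sf3b1+/- arrays lay above both wild-type arrays for Hnrnpa2b1 and Hnrnpl (2 of 28, where 17.8% of all compared genes did), and below them for Hnrnpdl, Hnrnph1, Srsf5 and Srsf10 (4 of 28, where 18.5% did).

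**Figure D1:**
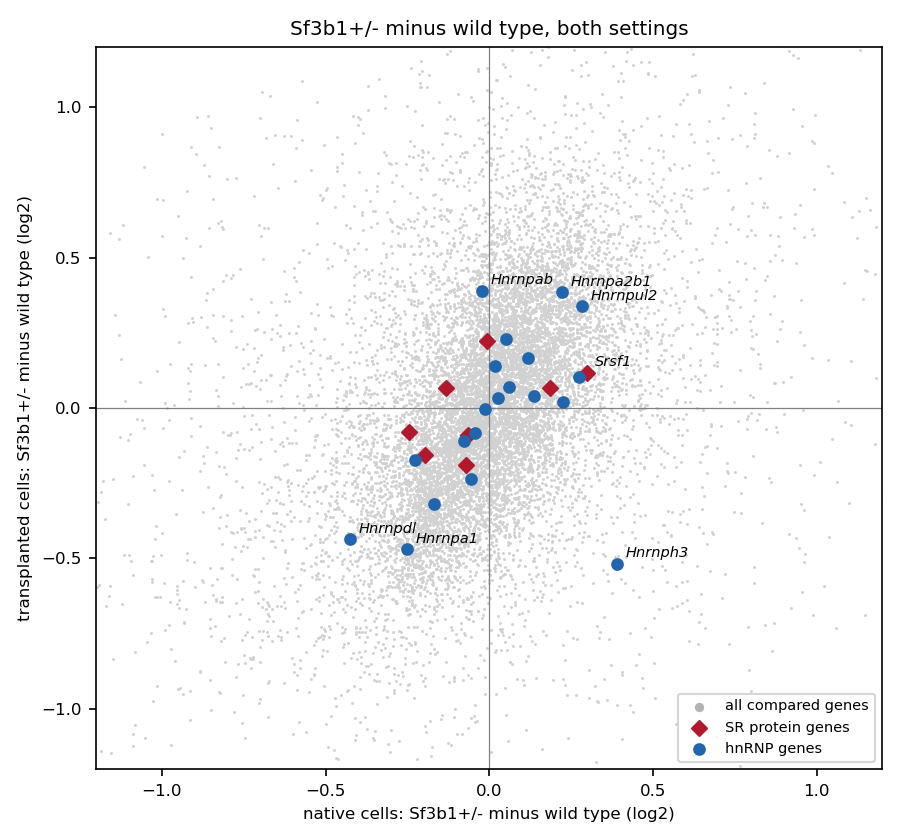
Genotype differences of SR protein genes (red diamonds) and hnRNP genes (blue circles) among all 13033 compared genes (grey dots). The horizontal axis is Sf3b1+/- minus wild type in native cells and the vertical axis the same in transplanted cells, both as log2 difference with 1 array per group; 407 genes lie outside the axes. Members lie within the grey cloud, Hnrnpdl and Hnrnpa1 at lower left and Hnrnph3, with a dim probe, at lower right.

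The comparison of settings asks how LSK cells recovered after transplantation differ from native ones, and the 2 families differed in their counts. The signal of Srsf3, Srsf6 and Srsf7 was at least 0.32 higher in transplanted cells in both genotypes (3 of 8 SR protein genes and 0 of 20 hnRNP genes, where 11.3% of all compared genes were). That of Hnrnpa0, Hnrnpa1, Hnrnpa3, Hnrnpd, Hnrnpf, Hnrnpm, Hnrnpr, Hnrnpu and Hnrnpul2 was at least 0.32 lower in both genotypes (9 of 20 hnRNP genes and 0 of 8 SR protein genes, where 10.1% were). The hnRNP median was -0.30 in Sf3b1+/- and -0.27 in wild-type cells, the SR protein median 0.07 and 0.05, and the all-gene median 0.00711 and 0.00121. Scaled to the spike-ins, the hnRNP medians were 0.48 and 0.16, against the all-gene shift of 0.79 and 0.43. The SR protein median exceeded the hnRNP median by 0.37 and 0.32, and by 0.33 to 0.39 and 0.22 to 0.32 over 10 ways of processing. Ways that only shift each array by 1 constant, such as spike-in scaling, cannot change this gap, so not all of the 10 are separate readings.

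At a Benjamini-Hochberg adjusted p of 0.05 the limma model called no member for setting (0 of 28, where 0.575% of all compared genes were called, 55 higher and 20 lower). At an unadjusted p of 0.05 it had 3 SR protein genes higher and 9 hnRNP genes lower, where 13.6% of all compared genes were higher and 12.2% lower. The 12 members were the same ones as by size. With a prior variance that follows the signal, an alternative setting of the same test, these 12 members and 2222 genes in all passed at an adjusted p of 0.05. With normexp background correction and the original prior, 2 members higher and 7 lower passed, among 1440 genes, so the call depends on the processing. At 1.5-fold the counts were small: Srsf6 and Srsf7 were higher in Sf3b1+/- cells (2 of 28, against 11.4%) and Srsf7 and Hnrnph3 in wild-type cells (2 of 28, against 7.95%). Hnrnpa0 and Hnrnpa1 were lower in Sf3b1+/- cells (2 of 28, against 7.01%), and Hnrnpa0 and Hnrnpu in wild-type cells (2 of 28, against 5.74%).

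Srsf7, an SR protein with a zinc knuckle that also links splicing to mRNA export, read 3.14 in transplanted and 2.42 in native Sf3b1+/- cells, and 3.23 in transplanted and 2.48 in native wild-type cells. Both transplanted arrays lay above both native arrays, by 0.73 and 0.76, and the limma effect was 0.74 (SE 0.12, unadjusted p = 0.00359, Benjamini-Hochberg adjusted p = 0.099). Srsf6 read 0.99 and 0.37 in transplanted and native Sf3b1+/- cells, and 0.92 and 0.51 in transplanted and native wild-type cells (limma effect 0.52, SE 0.13, Benjamini-Hochberg adjusted p = 0.137). Srsf3, the smallest SR protein and a regulator of its own poison exon and of export, read 2.38 and 1.93 in transplanted and native Sf3b1+/- cells, and 2.54 and 2.12 in transplanted and native wild-type cells (limma effect 0.44, SE 0.12, Benjamini-Hochberg adjusted p = 0.147). The transplanted and native arrays did not overlap for any of the 3 genes.

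By the probe that stands for each gene, the other SR protein genes did not share that direction beyond the spot noise. Srsf1, Srsf4 and Srsf9 were lower on both transplanted arrays than on both native arrays. Srsf9 read 0.99 and 1.21 in transplanted and native Sf3b1+/- cells, and 0.77 and 1.22 in transplanted and native wild-type cells. Srsf1 differed by -0.32 and -0.14 and Srsf4 by -0.30 and -0.18 (Sf3b1+/- and wild type). Srsf10 differed by 0.03 and 0.15 and Srsf5 by 0.11 and -0.06, within the spot noise. Both dimmer Srsf10 probes were higher in transplanted cells, 1 by 0.14 and 0.36 and the dimmest by 0.19 and 1.05.

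Hnrnpa0, which binds AU-rich mRNA and is phosphorylated in stress signalling, read 2.57 in transplanted and 3.32 in native Sf3b1+/- cells, and 2.66 in transplanted and 3.36 in native wild-type cells. The differences of -0.75 and -0.71 gave a limma effect of -0.73 (SE 0.12, unadjusted p = 0.00386, Benjamini-Hochberg adjusted p = 0.101); scaled to the spike-ins they were 0.04 and -0.28, both below the all-gene shift. Hnrnpa1 differed by -0.73 and -0.51 (limma effect -0.62, SE 0.13, Benjamini-Hochberg adjusted p = 0.126). Hnrnpu read 1.16 and 1.70 in transplanted and native Sf3b1+/- cells, and 0.99 and 1.58 in transplanted and native wild-type cells (limma effect -0.56, Benjamini-Hochberg adjusted p = 0.126).

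Hnrnpr read 1.39 and 1.90 in transplanted and native Sf3b1+/- cells, and 1.32 and 1.84 in transplanted and native wild-type cells, differences of -0.51 and -0.52. Hnrnpd, the AU-rich element binding protein AUF1, read 2.16 and 2.61 in transplanted and native Sf3b1+/- cells, and 2.02 and 2.59 in transplanted and native wild-type cells. Hnrnpa3, a close relative of Hnrnpa1 and Hnrnpa2b1, read 4.58 and 4.95 in transplanted and native Sf3b1+/- cells, and 4.55 and 4.92 in transplanted and native wild-type cells. The differences were -0.45 and -0.57 for Hnrnpd, -0.37 and -0.37 for Hnrnpa3, -0.49 and -0.55 for Hnrnpul2, -0.49 and -0.46 for Hnrnpm, and -0.55 and -0.40 for Hnrnpf. For each of these 9 genes both transplanted arrays lay below both native arrays, and in all, 12 of 20 hnRNP genes and 3 of 8 SR protein genes did, where 26.5% of all compared genes did. The reverse order held for Hnrnpc and Hnrnpk and for the 3 SR protein genes named first, where 25.5% of all compared genes did.

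Not every hnRNP gene was lower. Hnrnpk, a poly-C binding protein, read 0.26 and 0.04 in transplanted and native Sf3b1+/- cells, and 0.26 and 0.06 in transplanted and native wild-type cells. Hnrnpc differed by 0.23 and 0.18, Hnrnpa2b1 by 0.38 and 0.21 and Hnrnph1 by 0.03 and 0.21. The other, dimmer Hnrnpa2b1 probe differed by -0.22 and -0.04, so the setting direction of Hnrnpa2b1 depends on the probe. Hnrnpdl, the member with the lowest genotype p, differed by 0.01 and 0.02 with setting. Hnrnpab differed by 0.19 in Sf3b1+/- and -0.22 in wild-type cells, Hnrnph3 by -0.21 and 0.70, Hnrnpll by -0.24 and -0.03, Hnrnpl by -0.11 and -0.01, and Hnrnph2 by -0.13 and -0.31.

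**Figure D2:**
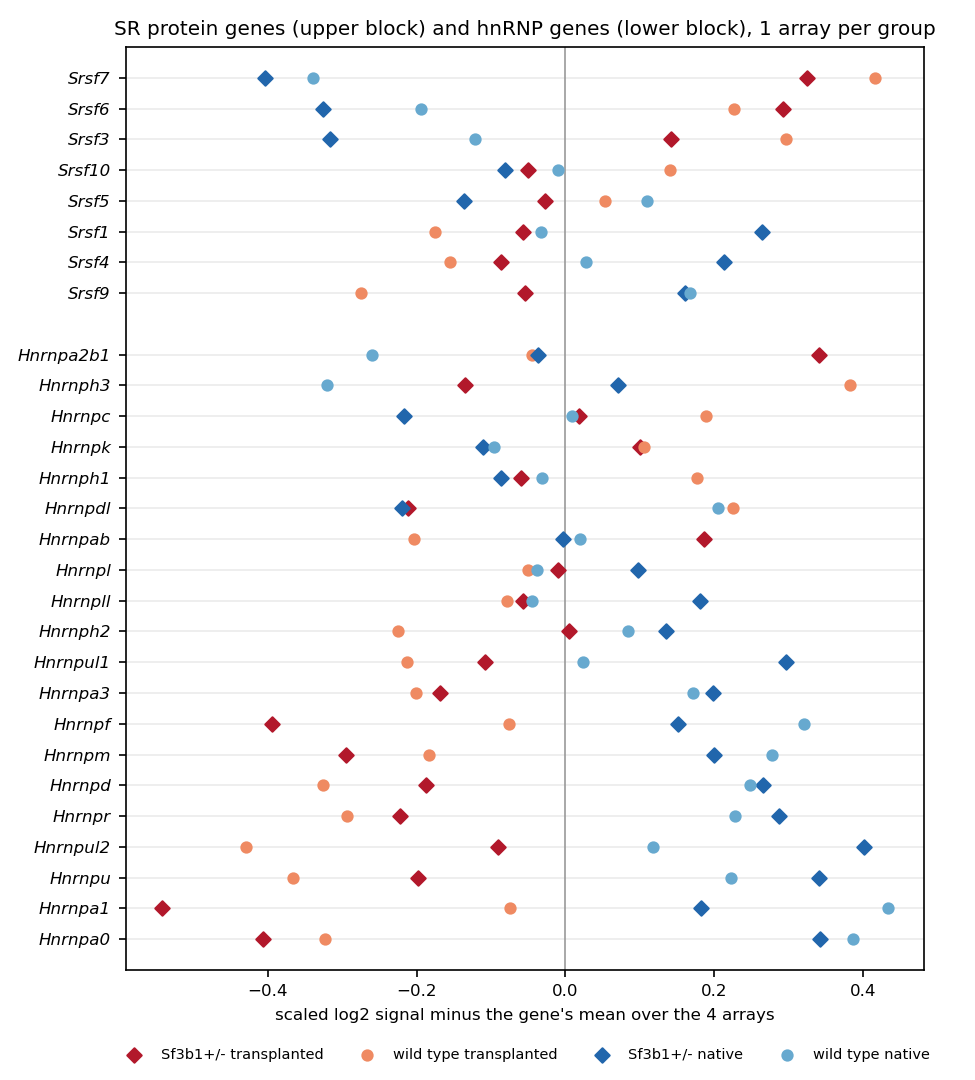
Signal of the 28 members on each array, as scaled log2 signal minus the mean of that gene over the 4 arrays, with SR protein genes in the upper block and hnRNP genes in the lower block. Red diamonds are Sf3b1+/- transplanted, orange circles wild-type transplanted, dark blue diamonds Sf3b1+/- native and light blue circles wild-type native cells, 1 array each. Srsf7, Srsf6 and Srsf3 have both transplanted arrays at the right, and the genes at the foot of the plot, with Hnrnpa0 and Hnrnpa1 last, have them at the left.

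**Figure D3:**
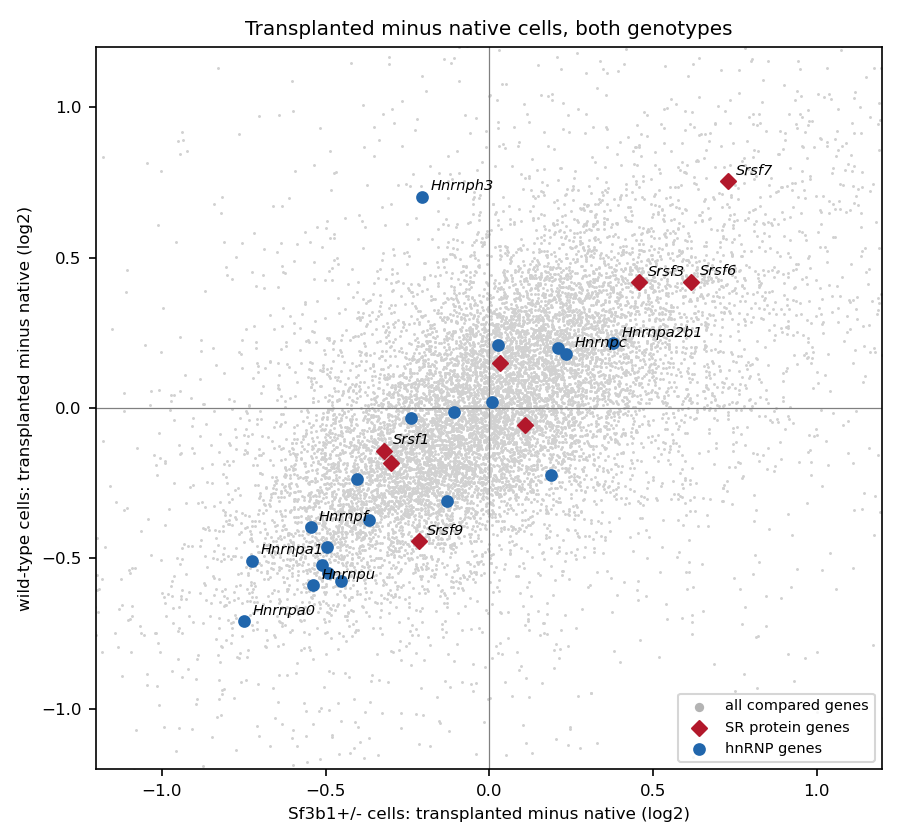
Setting differences of SR protein genes (red diamonds) and hnRNP genes (blue circles) among all 13033 compared genes (grey dots). The horizontal axis is transplanted minus native in Sf3b1+/- cells and the vertical axis the same in wild-type cells, both as log2 difference with 1 array per group; 766 genes lie outside the axes. Srsf3, Srsf6 and Srsf7 lie at upper right, 9 hnRNP genes at lower left between -0.75 and -0.37, and Hnrnph3, with a dim probe, at upper left.

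Markers of other cells and states moved with the setting too. The 8 B lineage markers had a summed scaled signal of 2.29 and 2.62 in Sf3b1+/- and wild-type transplanted cells, against 4.19 and 12.3 in Sf3b1+/- and wild-type native cells, and 4 of 8 were well above background in transplanted cells against 7 of 8 in native cells. The 10 LSK markers summed to 47.0 and 47.8 in Sf3b1+/- and wild-type transplanted cells, against 59.8 and 61.3 in Sf3b1+/- and wild-type native cells, but Cd34, the brightest of them, makes up much of that sum. By count, 6 of the 10 were higher in transplanted Sf3b1+/- cells (median 0.24), Slamf1 by 2.57 and Procr by 1.28, and 4 of 10 in transplanted wild-type cells (median -0.22). The 7 cycling markers summed to 33.5 and 33.1 in Sf3b1+/- and wild-type transplanted cells, against 39.3 and 39.1 in Sf3b1+/- and wild-type native cells. Megakaryocyte markers went with genotype: 25.4 and 14.4 in Sf3b1+/- and wild-type transplanted cells, and 18.9 and 12.0 in Sf3b1+/- and wild-type native cells. Pf4 makes up much of these sums, and by count 6 of 6 were higher with Sf3b1+/- in either setting. Long-term stem cell markers summed to 5.34 and 1.58 in Sf3b1+/- and wild-type transplanted cells, and 1.43 and 1.06 in Sf3b1+/- and wild-type native cells. Vwf makes up much of these sums. By count, 4 of 5 compared were higher in transplanted cells of either genotype, and Mecom was lower (-0.48 and -0.88). T and NK markers summed to 9.46 and 9.74 in Sf3b1+/- and wild-type transplanted cells, against 10.4 and 9.06 in Sf3b1+/- and wild-type native cells. Nkg7 makes up much of these sums. By count, 3 of 6 and 4 of 6 were higher in transplanted cells (Sf3b1+/- and wild type, medians 0.53 and 0.65). Neutrophil markers summed to 4.25 and 8.31 in Sf3b1+/- and wild-type transplanted cells, and 4.09 and 4.21 in Sf3b1+/- and wild-type native cells. Macrophage and dendritic markers summed to 3.81 and 4.56 in Sf3b1+/- and wild-type transplanted cells, against 2.40 and 3.32 in Sf3b1+/- and wild-type native cells, with 3 of 3 compared markers higher in transplanted cells of either genotype. Csf1r makes up much of these sums. Other lists differed with genotype too. Against wild type, Sf3b1+/- cells had 6 of 7 B lineage markers lower in transplanted and 7 of 7 in native cells. T and NK markers were lower for 6 of 6 and 5 of 6. Long-term stem cell markers were higher for 5 of 5 in both settings, 4 of them by under 0.32 in native cells. Erythroid markers were higher for 4 of 6 and 5 of 6. Of all compared genes, 50.5% and 49.7% were higher. The part of these markers in the SR protein and hnRNP values was not tested.

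Probes within a gene were a second reading of 15 members. All 7 probes of Srsf3, Srsf6 and Srsf7 were higher in transplanted cells in both genotypes, though the second Srsf7 probe differed by 0.21 and 0.32 and the second Srsf6 probe by 0.31 and 0.17 (Sf3b1+/- and wild type). Of 16 SR protein probes, 10 were higher and 5 lower in transplanted cells in both genotypes, and of 35 hnRNP probes 9 were higher and 22 lower. By at least 0.32 in both genotypes, 4 SR protein probes were higher and 1 lower, against 0 and 13 hnRNP probes. Counted by gene, 11.3% of all compared genes were higher and 10.1% lower by as much. The share over all probes is not given, and Hnrnpa3 alone had 7 of the 35 hnRNP probes, so the probe counts are a description. The second Hnrnpa0 probe differed with setting by -0.46 and -0.40. For genotype, 1 hnRNP probe was higher and 2 lower by at least 0.32 in both settings, against 0 and 0 SR protein probes.

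Probes of 8 members differed by over 0.5 in at least 1 comparison: Hnrnpa1, Hnrnpa2b1, Hnrnpa3, Hnrnpab, Hnrnpf, Hnrnpul1, Srsf7 and Srsf10. The second Hnrnpa1 probe differed with setting by only -0.08 and -0.14, and the second Hnrnpf probe by -0.08 and 0.19. The second Hnrnpul1 probe was higher in transplanted cells, by 0.23 and 0.31, where the standing probe differed by -0.40 and -0.24. Hnrnpa3 had 7 probes, of which the one standing for the gene was lower in transplanted cells by -0.37 in both genotypes and another higher on average by 0.08. Hnrnpab and Hnrnpdl each had a second probe lower in transplanted cells, by -0.40 and -0.45 for Hnrnpab and by -0.33 and -0.38 for Hnrnpdl, where the standing probes differed by 0.19 and -0.22 and by 0.01 and 0.02. A dim Srsf10 probe, at 126.4 and 90.8 units in Sf3b1+/- and wild-type transplanted cells, and 80.1 and 39.7 units in Sf3b1+/- and wild-type native cells, read 0.78 higher with Sf3b1+/- in native cells, where the 2 brighter ones differed by -0.07 and 0.11. Hnrnpa1 and Hnrnpa3 have processed pseudogenes, and whether their probes also read these was not tested.

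**Figure D4:**
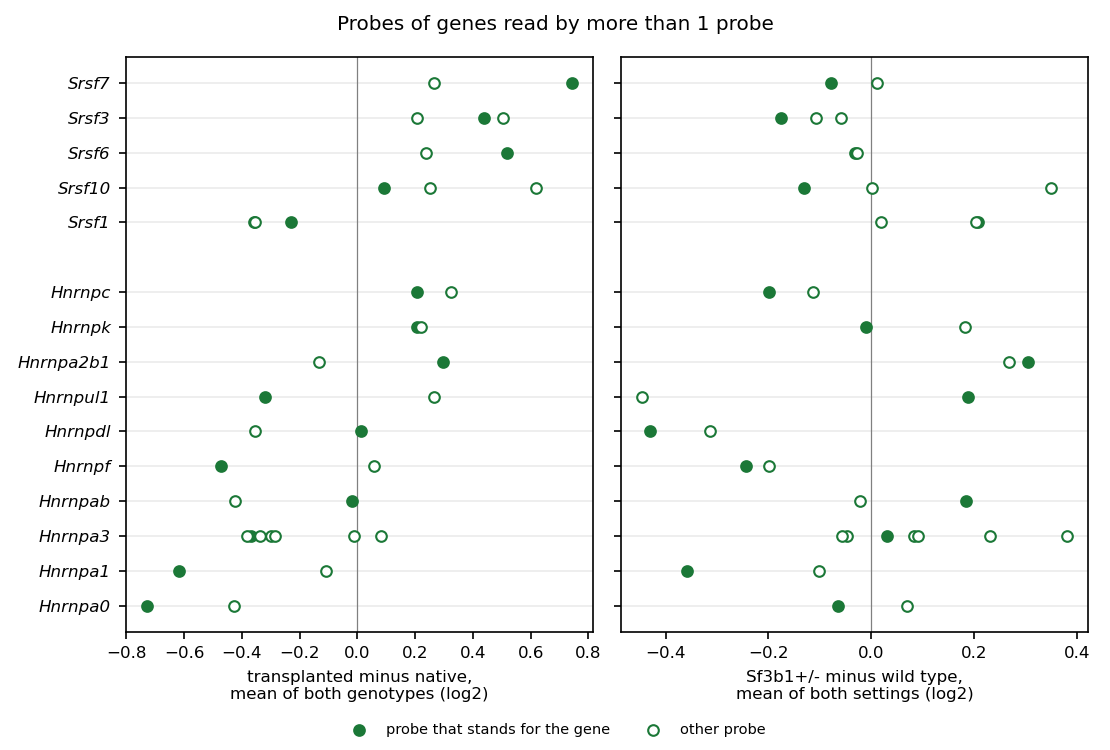
Differences of every compared probe of the 15 members with more than 1 probe, as log2 difference averaged over both genotypes (left, transplanted minus native) and over both settings (right, Sf3b1+/- minus wild type). Filled circles are the probe that stands for the gene and open circles its other probes. The probes of Srsf3, Srsf6 and Srsf7 all lie right of 0 in the left panel, while those of Hnrnpa2b1, Hnrnpf, Hnrnpul1 and Hnrnpa3 lie on both sides.

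Genes that act with these families were counted in the same limma model, at an unadjusted p of 0.05; none passed at an adjusted p of 0.05. Among 11 compared genes for SR protein kinases and transport, 2 were higher and 0 lower in transplanted cells, where 13.6% of all compared genes were higher and 12.2% lower. These were Clk1, a nuclear kinase of SR proteins, with 1.00 and 0.21 in transplanted and native Sf3b1+/- cells and 1.17 and 0.28 in transplanted and native wild-type cells (limma effect 0.84, Benjamini-Hochberg adjusted p = 0.0892), and its relative Clk3 (limma effect 0.63, adjusted p = 0.129). For genotype 1 was higher, Clk2, by 0.49 in transplanted and 0.34 in native cells (Benjamini-Hochberg adjusted p = 0.361). Among 17 SR-related genes, Tra2a, Tra2b and Luc7l were higher and Scaf11, Scaf8 and Srrm1 lower in transplanted cells (3 of 17 each way, near those all-gene shares), and none passed for genotype.

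Among 31 hnRNP-like regulators, 11 were lower in transplanted cells and 1, the neuronal polypyrimidine tract binding protein gene Ptbp2, was higher, where 12.2% of all compared genes were lower and 13.6% higher, with list medians of -0.25 in Sf3b1+/- and -0.29 in wild-type cells. The lower ones included Mbnl3 (limma effect -0.68), Ewsr1 (-0.67), Khdrbs1 (-0.64) and Syncrip (-0.60), all RNA-binding proteins. None passed for genotype, and 10 of 31 were higher in Sf3b1+/- transplanted cells and 9 of 31 in Sf3b1+/- native cells, where 50.5% and 49.7% of all compared genes were. Raly, an hnRNP C relative, stood apart from every member in size: 4.05 in Sf3b1+/- and 2.82 in wild-type transplanted cells, and 2.64 in Sf3b1+/- and 2.70 in wild-type native cells, so that the Sf3b1+/- transplanted array alone was high. Rnps1, a splicing activator of the exon junction complex, was 0.59 higher in Sf3b1+/- transplanted and 0.18 higher in Sf3b1+/- native cells. Apart from Raly and Rnps1, the genes named from these lists were chosen after their values were seen.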

How the data were processed

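LSK RNA (20 ng) was mixed with spike-in RNAs, labelled with Cy3 and hybridised to 4 arrays on 1 slide with 1 scan time, per the labels and the file headers. Per the file headers, Agilent Feature Extraction 10.7.1.1 (protocol GE1_107_Sep09, design 028005, probe positions on mm9) made the deposited processed intensity, background-subtracted within each array and not scaled between arrays. The series table, as deposited, holds a linear ratio of that signal to a constant of each array (75th percentile about 1.00, column medians 0.0747, 0.0816, 0.0745 and 0.0810 for Sf3b1+/- transplanted, wild-type transplanted, Sf3b1+/- native and wild-type native), uncentred, where more means more signal, and was an alternative.

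Outlier spots were left out, spots of a probe averaged, and log2 values shifted by the 75th percentile over probes well above background on all 4 arrays, since 49.53% of spots were detected on average. No spot was saturated. Before scaling that percentile was 2686, 1824, 1940 and 1652 units in the same order of groups. The number of arrays limits the precision. Genes were named through RefSeq (GRCm38.p6) for 27509 of 55681 probes. The brightest probe stood for a gene, and a gene was compared where the scanner software put it well above background on 2 or more arrays. Differences within a setting or genotype have no test. limma 3.58.1 in R 4.3.3 (files read with data.table, version 1.17.8) fitted genotype plus setting over all genes, two-sided with Benjamini-Hochberg adjustment, and was tested on simulated data. The normexp alternative used median spot signals.

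Members and lists were chosen with earlier results of these data known. Values on every array were given for the 6 members with the widest value in each difference, those 0.32 (log2) apart in both settings and those whose probes differed by over 0.5. Genes of other lists were to be named at 1.5-fold between genotypes.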

Additional observations from a re-analysis of the deposited data

Results flagged for a closer look

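Hnrnph3 moved in opposite directions with genotype in the 2 settings: -0.52 in transplanted cells (Sf3b1+/- minus wild type, log2) and 0.39 in native cells, a gap of -0.91 between the settings. The difference was not tested, since each group has 1 array. The probe was dim, with background-subtracted signals of 48.9 and 47.5 units in Sf3b1+/- and wild-type transplanted cells, and 40.7 and 26.4 units in Sf3b1+/- and wild-type native cells, beside a median local background of 42, 44, 45 and 43 units. With normexp background correction the native difference was -0.04.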

How the results depend on the processing

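No paired analysis was possible because each group has a single array. Every setting other than spike-in scaling kept the 8 medians of SR protein and hnRNP genes within the spot noise of the values given. Scaled to spike-ins, the SR protein medians were 0.57 (genotype, transplanted), 0.15 (genotype, native), 0.86 (setting, Sf3b1+/-) and 0.48 (setting, wild type), and the hnRNP medians 0.60, 0.24, 0.48 and 0.16. Members 1.5-fold higher then numbered 15, 1, 13 and 8, with 0 lower for either setting difference. The Sf3b1+/- setting differences of Hnrnpa0 and Hnrnpa1 were 0.0382 and 0.0617. The share of all compared genes 1.5-fold apart is not given here, so these counts do not set the members apart. Spike-in scaling shifts every gene by 1 constant per array, and the all-gene medians with it. Its limma fit called 9 members for setting, all 9 higher, with 5463 genes, and 571 genes for genotype. With normexp 9 members were called for setting, 2 higher and 7 lower, with 1440 genes, and 34 genes for genotype. With a trended prior 12 were called, 3 higher and 9 lower, with 2222 genes, and 98 genes for genotype. Members called for genotype stayed at 0 in each of these fits, and were 1 at an unadjusted p, with 1775 genes, against 12 members and 3357 genes for setting. Genes called for setting, 75 as reported, were 0 with quantile normalization, cyclic loess or no filter on dim probes, 7 with the deposited series table or the mean of all probes, and 260 with probes well above background on all 4 arrays, and no member was called in any of these. The causes were not tested.

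Members 1.5-fold lower with setting in wild-type cells were 5 with the 75th percentile over all probes, 4 with the deposited series table and 1 with the mean of all probes. Members 1.5-fold higher there were 1 with cyclic loess, normexp or the mean of all probes. In Sf3b1+/- cells the mean of all probes gave 0 higher and 1 lower, and quantile normalization 4 lower. Without a filter, 1 member, Srsf12, was 1.5-fold lower in native Sf3b1+/- than in native wild-type cells. The shares of all compared genes under these alternatives are not given, so the counts only show how member counts move with the processing. Over 10 settings without spike-in scaling, the limma Benjamini-Hochberg adjusted p for setting ran over 0.00203 to 0.212 for Srsf7 and 0.00227 to 0.217 for Hnrnpa0, and for genotype over 0.0962 to 0.389 for Hnrnpdl. Differences near the spot noise are not resolved with 1 array per group.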
